A study of Mus musculus with 27 samples.

Results

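Necroptosis is a lytic form of programmed death in which the kinase Ripk3 phosphorylates the pseudokinase Mlkl, which then breaks the plasma membrane. Ripk3 is engaged by Ripk1 below death receptors or by Zbp1, a sensor of Z-form nucleic acid, and it is held in check by caspase-8 (Casp8), which acts with the adaptor Fadd and the caspase-8 relative cFLIP (Cflar). Fibroblasts from mouse embryos are a standard cell in which this pathway is studied. The 7 genes Mlkl, Ripk3, Ripk1, Zbp1, Casp8, Fadd and Cflar are described here. They were picked by symbol from the 24062 rows of a table of raw read counts, and each symbol matched 1 row. Mlkl was listed because it was higher in the libraries labelled KO of the first fibroblast experiment, so the levels of that experiment are a description and carry no test.

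The series bears on Foxm1, a forkhead protein known for switching on genes of mitosis, in C57BL/6 mice. It holds bulk RNA sequencing of 27 libraries in 9 groups of 3. Experiment 1 has embryonic fibroblasts labelled KO-NTD, KO and WT, and experiment 2 has fibroblasts labelled Het-NTD, Het, WT-NTD and WT. Whole lungs of mice aged 10 days are labelled Het or WT. Cells were early-passage cultures taken while dividing, at about 90% confluence. The labels explain neither NTD nor which part of Foxm1 is altered, and they do not say whether the libraries of a group came from separate embryos, animals or cultures, so a p-value here measures the spread between libraries, which may be technical. Library totals were 29730693 to 69517834 counts.

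The libraries labelled KO did not have a lower Foxm1 read count. In CPM (counts scaled to library size, with TMM factors over all 27 libraries; mean ± SD, n = 3 each) it averaged 394 ± 30.7 in KO-NTD, 157 ± 6.34 in KO and 149 ± 4.35 in WT. In experiment 2 it averaged 358 ± 34.8 CPM in Het-NTD, 134 ± 2.56 CPM in Het, 360 ± 59.1 CPM in WT-NTD and 152 ± 1.77 CPM in WT, and in lung 15.2 ± 1.54 CPM in Het and 15.8 ± 0.939 CPM in WT. The labels do not say which part of Foxm1 is altered, so the read count of the whole gene cannot settle what the KO label means. Directions below are those of libraries as labelled. The 12 fibroblast markers summed to 8315 to 11022 CPM in lung and 38024 to 55864 CPM in the fibroblast libraries. The 12 lung markers summed to 30009 to 39364 CPM in WT lung and 6.17 to 10.0 CPM in WT fibroblasts of experiment 2. In those WT fibroblasts 4 of the 12, among them the surfactant gene Sftpa1, were at 0 in every library. Macrophage markers were present in the cultures: 19 such genes summed to 13.2 to 502 CPM in fibroblast libraries, and none of them was at 0 in all libraries of any group. In bulk RNA, fewer cells of a type and less RNA per cell cannot be told apart.

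Mlkl, the executioner of the pathway, lies on chromosome 8 at chr8:111311797-111338177 on the minus strand (GRCm38, GENCODE M21), and its exons overlap no other gene. In experiment 1 it stood at 13.9, 18.7 and 12.4 CPM in KO-NTD, at 16.2, 13.6 and 13.6 CPM in KO and at 7.02, 6.87 and 6.67 CPM in WT. All 6 libraries labelled KO or KO-NTD lay above all 3 WT libraries. Of the genes tested, 6.99% lay wholly above WT in KO and 9.33% in KO-NTD. In experiment 2 it stood at 18.9, 16.2 and 17.0 CPM in Het-NTD, at 16.4, 18.1 and 22.0 CPM in Het, at 10.0, 12.4 and 12.3 CPM in WT-NTD and at 9.57, 7.53 and 7.18 CPM in WT. The 6 libraries labelled Het or Het-NTD lay above the 6 labelled WT or WT-NTD, and the WT-NTD libraries lay between. For Het and WT alone, 16.6% of the genes tested lay wholly higher in Het. The share of genes split in this way over all 4 groups was not taken, so nothing particular to Mlkl is read from it. In lung it stood at 5.17, 5.51 and 5.48 CPM in Het and at 4.07, 4.28 and 5.82 CPM in WT, and these groups overlapped. Ordered by mean level, the groups ran from Het (18.8 ± 2.86 CPM, SD, n = 3) through Het-NTD (17.3 ± 1.39), KO-NTD (15.0 ± 3.31), KO (14.5 ± 1.52), WT-NTD (11.6 ± 1.35), WT of experiment 2 (8.09 ± 1.29) and WT of experiment 1 (6.85 ± 0.177) to Het lung (5.39 ± 0.190) and WT lung (4.72 ± 0.955). In that order Het overlapped Het-NTD, Het-NTD overlapped KO-NTD, KO-NTD overlapped KO, and the lung groups overlapped each other. The other neighbours, KO and WT-NTD among them, did not overlap. KO-NTD and WT-NTD, which are not neighbours in that order, also overlapped.

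**Figure D1:**
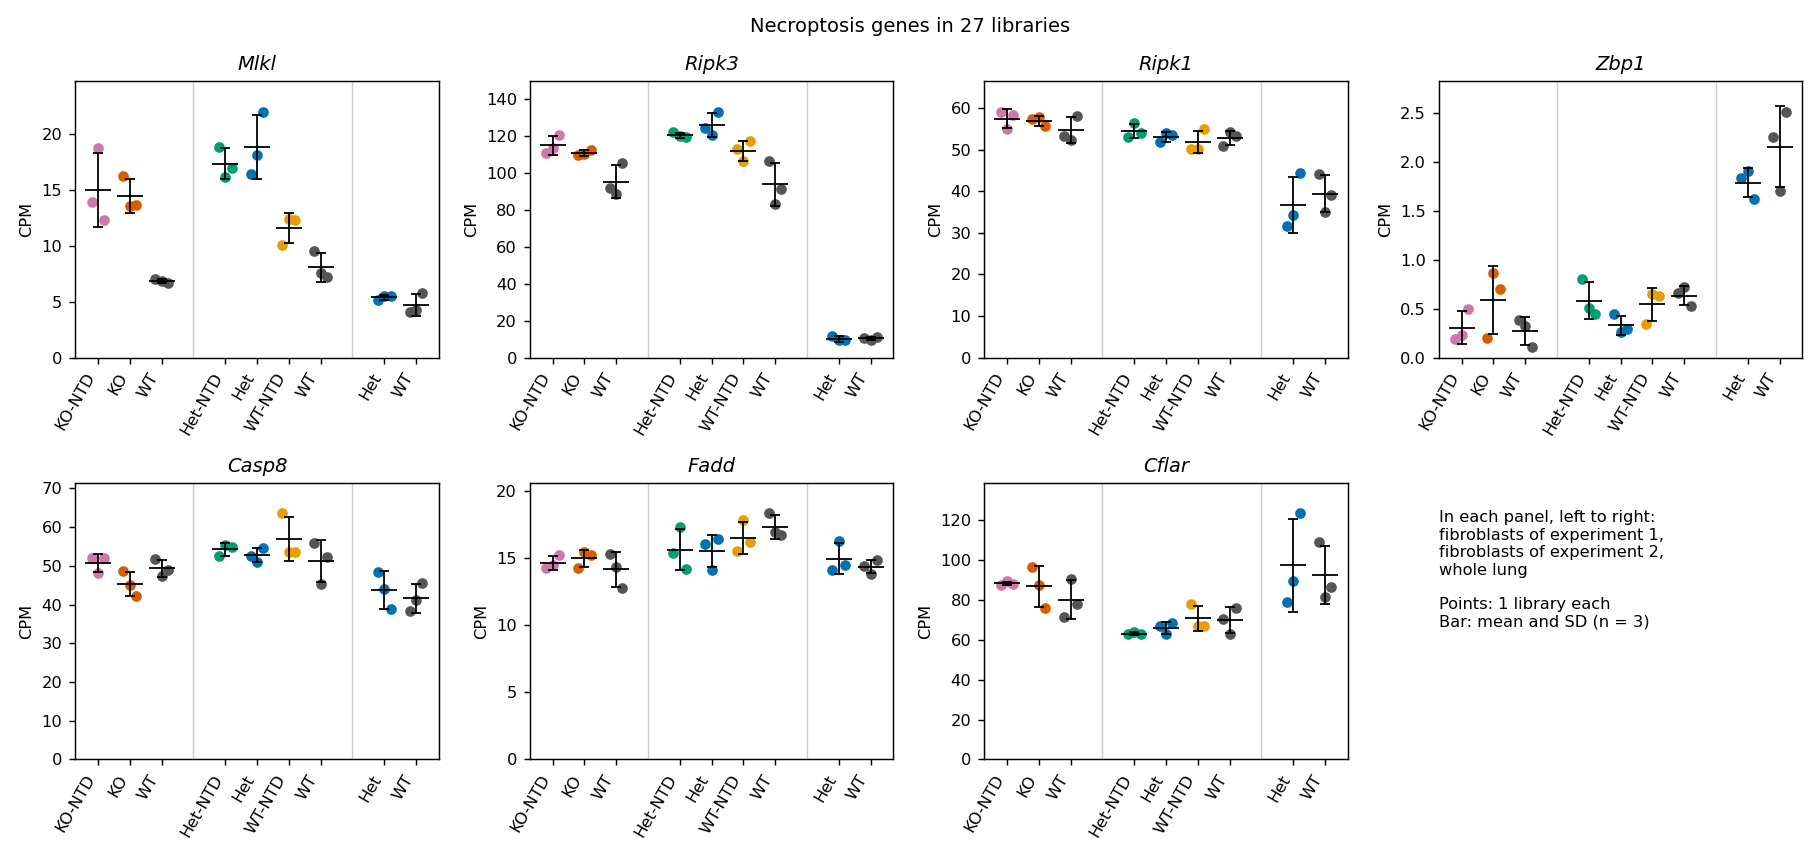
CPM of each gene (vertical axes, linear from 0) in every library (points) of the 9 groups, with the mean and SD of each group (bar, n = 3). Mlkl and Ripk3 are higher in Het than in WT fibroblasts of experiment 2, Ripk3 is far lower in lung than in fibroblasts, and Zbp1 is at most 0.871 CPM in fibroblasts.

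Ripk3, the kinase that activates Mlkl, lies at chr14:55784995-55788865 on the minus strand, with exons that overlap no other gene. It stood at 111, 113 and 120 CPM in KO-NTD, at 109, 110 and 112 CPM in KO and at 91.6, 88.3 and 105 CPM in WT of experiment 1. Here too the 3 KO and the 3 KO-NTD libraries lay above the 3 WT libraries, by a smaller margin than for Mlkl. In experiment 2 it stood at 122, 120 and 119 CPM in Het-NTD, at 124, 120 and 133 CPM in Het, at 113, 106 and 117 CPM in WT-NTD and at 106, 83.2 and 91.3 CPM in WT. Het lay wholly above WT, while WT-NTD and WT overlapped at the highest WT library. In lung Ripk3 stood at 11.9, 9.32 and 9.42 CPM in Het and at 10.8, 9.33 and 11.0 CPM in WT, and these groups overlapped. Ripk3 had the steepest order of any of the 7 genes, with a mean 12.3 times as high in the highest group, Het fibroblasts, as in the lowest, Het lung.

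The sequences before the start sites of Mlkl and Ripk3 are shown because these 2 genes had like patterns over the fibroblasts, with the second Ripk1 start beside them because its window holds the most motif matches. Each is the 250 bases before an annotated start, 5′ to 3′ on the gene's strand, from RefSeq promoter windows on GRCm38.p6; 6 of the 7 genes matched an entry there, with 7 windows, and Zbp1 has none printed. Capitals mark matches to 4 motifs on either strand: the interferon element (GAAA, 2 free bases, GAAA), the STAT element TTCNNNGAA, the forkhead motif GTAAACA and the cell cycle homology element TTTGAA.
Mlkl (chr8:111338206-111338455, minus strand): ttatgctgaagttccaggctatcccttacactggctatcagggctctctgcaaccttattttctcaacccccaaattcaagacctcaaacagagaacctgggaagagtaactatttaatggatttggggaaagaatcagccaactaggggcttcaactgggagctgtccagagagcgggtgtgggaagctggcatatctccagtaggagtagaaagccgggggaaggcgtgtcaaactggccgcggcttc
Ripk3 (chr14:55788858-55789107, minus strand): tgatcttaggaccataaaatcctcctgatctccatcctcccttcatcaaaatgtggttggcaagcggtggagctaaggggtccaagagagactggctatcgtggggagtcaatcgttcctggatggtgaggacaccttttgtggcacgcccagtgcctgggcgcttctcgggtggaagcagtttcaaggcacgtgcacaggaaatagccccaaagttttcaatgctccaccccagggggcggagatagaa
Ripk1, second start (chr13:34002624-34002873, plus strand): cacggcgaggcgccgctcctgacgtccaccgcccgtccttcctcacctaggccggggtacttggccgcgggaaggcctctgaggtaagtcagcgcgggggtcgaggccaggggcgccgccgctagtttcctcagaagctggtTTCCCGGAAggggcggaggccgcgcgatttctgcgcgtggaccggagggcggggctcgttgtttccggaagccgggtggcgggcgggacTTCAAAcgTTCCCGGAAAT
In windows that also take in the 50 bases after the start, Mlkl and Fadd matched none of the 4 motifs, and Ripk3 matched the cell cycle element at 12 and 40 bases after its start. The second Ripk1 window matched the interferon element 5 bases before its start, running past the end of the printed stretch, the STAT element at 108 and 11 bases before it, with the nearer one overlapping the interferon match, and the cell cycle element at 19 bases before it. Casp8 matched the cell cycle element 132 bases before its start and Cflar the interferon element 7 bases after its start. No window of these genes matched the forkhead motif. Of 32851 windows of the same length, 3.44% held the interferon element, 8.3% the STAT element, 3.65% the forkhead motif and 17.9% the cell cycle element. These are matches of letters only.

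The fibroblasts of experiment 2 are other libraries than those that drew attention to Mlkl, although their results too were known when the 7 genes were listed. Mlkl rose in Het, at 18.8 ± 2.86 CPM against 8.09 ± 1.29 CPM in WT (SD, n = 3 each). The ratio was 2.33 (95% interval 1.89 to 2.86), a log2 difference of 1.22 ± 0.14 (SE, edgeR adjusted p = 2.5e-04). Ripk3 also rose, at 126 ± 6.43 CPM in Het against 93.6 ± 11.8 CPM in WT, a ratio of 1.35 (1.20 to 1.50) and a log2 difference of 0.43 ± 0.07 (SE, edgeR adjusted p = 0.0026). So the effector and its kinase rose in all 3 Het libraries, and the other 5 genes did not pass. These 2 of 7 members stand against 16.5% of the 14314 genes tested that passed in either direction, 7.89% that rose and 8.61% that fell, so calls were common in this comparison. The members' median log2 difference was 0.01, and that of all genes was also 0.01.

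Neither the upstream kinase nor the caspase-8 brake passed in Het against WT fibroblasts. Ripk1, at 53.1 ± 1.17 CPM in Het and 52.7 ± 1.69 CPM in WT, had a ratio of 1.01 (0.938 to 1.08). Casp8, the protease that cleaves Ripk1 and Ripk3, had a ratio of 1.03 (0.917 to 1.16), and Cflar, which restrains it, 0.948 (0.852 to 1.05). Fadd, the adaptor that recruits it, was at 16.1, 14.1 and 16.4 CPM in Het and at 18.3, 16.9 and 16.7 CPM in WT. The Fadd groups did not overlap, while the test of the ratio, 0.898 (0.784 to 1.03), missed the threshold (edgeR adjusted p = 0.265). A missed threshold does not show that these 4 genes are unaltered, and the intervals bound what a difference could be.

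Zbp1 was the exception among the other 5 in size, though its counts were low: 18, 10 and 10 counts in Het and 24, 27 and 18 counts in WT. It stood at 0.442, 0.259 and 0.289 CPM in Het and at 0.658, 0.719 and 0.532 CPM in WT, with no overlap. The ratio was 0.524 (0.293 to 0.935), with an edgeR unadjusted p of 0.0316 and an adjusted p of 0.12, so it is not called. Thus 4 of the 7 genes had Het and WT ranges that did not overlap, Mlkl and Ripk3 higher in Het and Zbp1 and Fadd lower. Over all genes tested, ranges did not overlap for 33.8%, 16.6% higher and 17.2% lower.

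**Figure D2:**
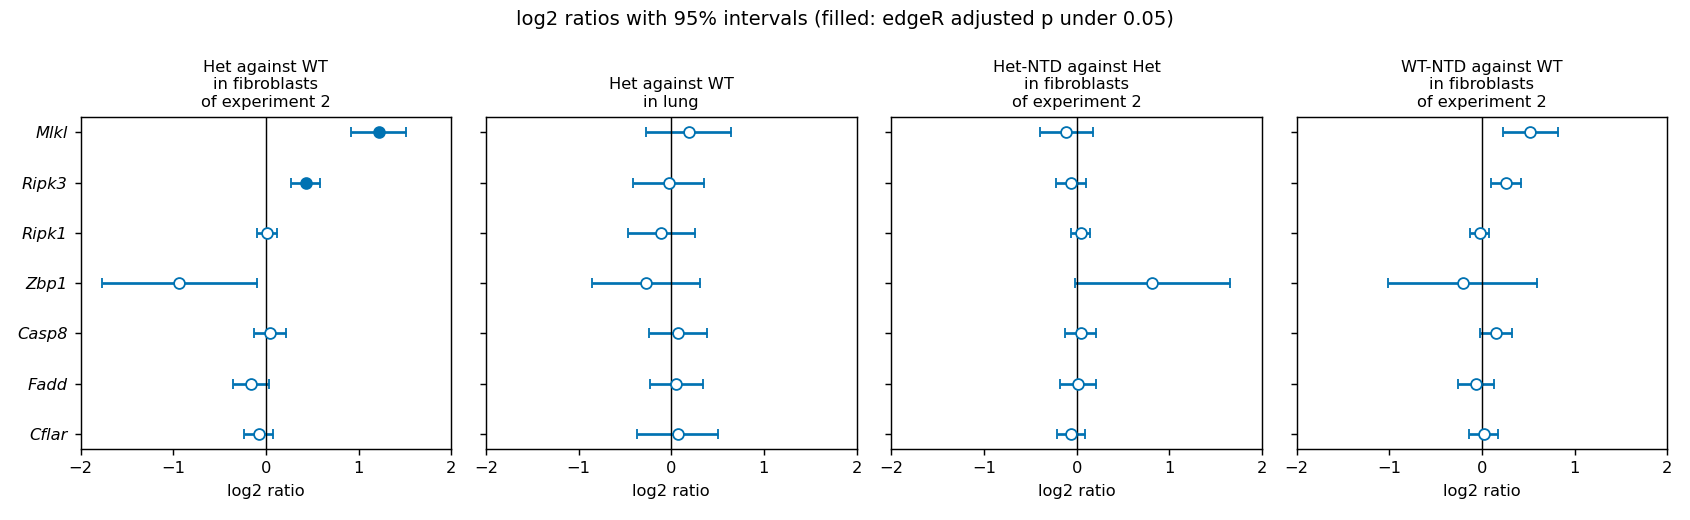
log2 ratio (horizontal axis) with its 95% interval for each gene in 4 comparisons, filled where the edgeR adjusted p is under 0.05. Mlkl (1.22) and Ripk3 (0.43) in Het against WT fibroblasts are the filled points, and no gene is filled in lung or in the comparisons of NTD libraries.

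Macrophage markers moved the other way in the same libraries. Their sum was 98.3, 15.2 and 38.4 CPM in Het and 250, 220 and 271 CPM in WT, with 12 of 19 lower in Het, none higher and a median log2 difference of -2.28. With the mean log2 CPM of these markers as a covariate, Mlkl kept its call (log2 1.05, edgeR adjusted p = 0.0357) and Ripk3 lost it although its value was larger (log2 0.51, edgeR adjusted p = 0.0529). Over all 12 alternatives the adjusted p of Mlkl lay between 4.0e-14 and 0.0357 and that of Ripk3 between 6.7e-06 and 0.0529. Groups hold 83.3% of the variance of that marker mean in experiment 2, so the covariate and the group are hard to separate there. In experiment 1 the markers do not separate KO from WT: they summed to 15.9, 502 and 343 CPM in KO 1, 2 and 3, whose Mlkl was 16.2, 13.6 and 13.6 CPM, and to 133, 77.9 and 102 CPM in WT 1, 2 and 3, whose Mlkl was 7.02, 6.87 and 6.67 CPM. The sum of KO 1 lay below and those of KO 2 and 3 above every WT library. In KO-NTD 1, 2 and 3 the sums were 48.9, 13.2 and 368 CPM, and Mlkl was 13.9, 18.7 and 12.4 CPM. Within KO and within KO-NTD Mlkl was highest where the sum was lowest, and within WT where the sum was highest. The part of macrophages in the Mlkl levels was not tested.

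**Figure D3:**
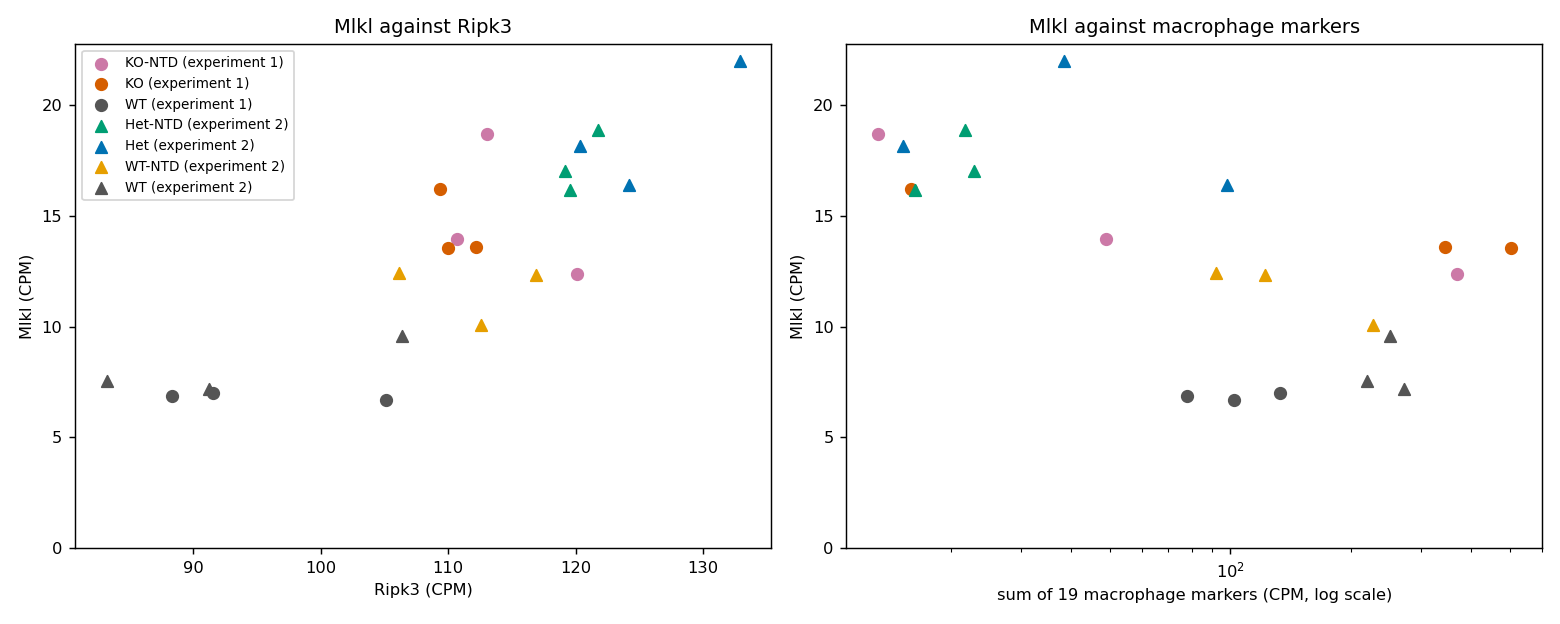
Mlkl (vertical axes, CPM from 0) against Ripk3 (left, CPM) and against the sum of 19 macrophage markers (right, CPM, log axis) in the 21 fibroblast libraries, 1 point each, with experiment 1 as circles and experiment 2 as triangles. Groups with a high mean of Mlkl have a high mean of Ripk3, while within KO and within KO-NTD the libraries are ordered differently by these genes. Mlkl is above 12 CPM in KO and KO-NTD libraries at marker sums from 13.2 to 502 CPM. Within KO and within KO-NTD it is highest in the library with the lowest sum, and within WT of experiment 1 in that with the highest.

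In experiment 1, the KO against WT ratio was 2.14 for Mlkl and 1.18 for Ripk3. These 2 of 7 members were the ones whose ranges did not overlap, beside 18.4% of the 14551 genes tested (6.99% higher in KO); 0.447% passed the edgeR test there, and nothing is read from either share because the list was picked on this contrast. In KO-NTD against WT, which shares its WT libraries, the ratios were 2.19 for Mlkl and 1.21 for Ripk3, again the 2 without overlap, beside 20.9% of genes (9.33% higher in KO-NTD). In KO-NTD against KO, which shares libraries with both, the ratios were 1.02 for both, and 0 of 7 ranges were apart, beside 11.8% of genes. Ripk1, Casp8, Fadd and Cflar had ratios of 0.932 to 1.11 in these 3 comparisons. Zbp1 was at 0.189, 0.232 and 0.501 CPM in KO-NTD, 0.197, 0.871 and 0.704 CPM in KO and 0.382, 0.329 and 0.111 CPM in WT. Its 2 highest KO libraries are the 2 with macrophage sums of 502 and 343 CPM, and its highest KO-NTD library is the one with 368 CPM; the part of macrophages in Zbp1 was not tested.

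None of the 7 genes passed the test between NTD libraries and their counterparts. In Het-NTD against Het, 0 of 7 members passed in edgeR, beside 0.014% of genes; 0 of 7 had an unadjusted p under 0.05, beside 6.26% of genes, and DESeq2 called 0. Mlkl had a ratio of 0.925 (0.758 to 1.13) and Ripk3 0.959 (0.860 to 1.07). Zbp1 was at 0.800, 0.508 and 0.447 CPM in Het-NTD and 0.442, 0.259 and 0.289 CPM in Het, which do not overlap, beside 16.3% of genes (7.36% higher), and its ratio of 1.76 had an interval of 0.990 to 3.14 (edgeR adjusted p = 0.793). In WT-NTD against WT, 0 of 7 passed in edgeR, beside 0.014% of genes, and DESeq2 called 0. Mlkl at 11.6 ± 1.35 CPM in WT-NTD and 8.09 ± 1.29 CPM in WT (SD, n = 3 each) had a ratio of 1.44 (1.17 to 1.77), and its ranges did not overlap, beside 9.33% of genes (4.34% higher). Its unadjusted p was 0.00248 and its edgeR adjusted p 0.654. Ripk3 had a ratio of 1.20 (1.07 to 1.34, unadjusted p = 0.00405, edgeR adjusted p = 0.654), so these 2 of 7 had an unadjusted p under 0.05, beside 7.37% of genes. Without WT 1, the WT library highest in both genes, Ripk3 passed (log2 0.36, edgeR adjusted p = 0.0243, against up to 0.971 over all 12 alternatives) while Mlkl did not.

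The NTD difference was set against genotype in the same fit. The NTD difference in Het minus that in WT was -0.64 (log2) for Mlkl and -0.32 for Ripk3, with edgeR adjusted p of 0.892 for each. No member of 7 and no gene of 14314 passed (0%); 2 of 7 members and 711 genes (4.97%) had an unadjusted p under 0.05, and DESeq2 called 4 genes, none of them members. The Mlkl and Ripk3 levels thus give no called difference between Het and WT in how they vary with NTD.

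Lungs labelled Het did not show the fibroblast pattern past a test. Of the 7 members 0 passed in edgeR, as did 0 of 15933 genes (0%); 0 of 7 members and 114 genes (0.715%) had an unadjusted p under 0.05, and DESeq2 called 1 gene, not a member. Mlkl, at 5.39 ± 0.190 CPM in Het and 4.72 ± 0.955 CPM in WT (SD, n = 3 each), had a ratio of 1.14 (0.827 to 1.57). Ripk3 had a ratio of 0.981 (0.753 to 1.28), Zbp1 0.828 (0.551 to 1.24), and the other 4 lay between 0.929 and 1.05. Zbp1 stood at 1.84, 1.91 and 1.62 CPM in Het lungs and at 2.26, 1.71 and 2.52 CPM in WT lungs, which overlap. No member's ranges were apart, against 4.38% of genes. The difference of the Het difference between tissues, fitted jointly, was -1.02 ± 0.25 (log2, SE) for Mlkl, lung minus fibroblasts. It missed the threshold in edgeR (adjusted p = 0.0761) and passed in DESeq2 (adjusted p = 0.00488), and over all 17 alternatives the adjusted p reached 0.813. For Ripk3 it was -0.45 ± 0.18 (edgeR adjusted p = 0.334). So 0 of 7 members passed in edgeR, beside 1.12% of 16364 genes, 2 of 7 had an unadjusted p under 0.05, beside 11.3% of genes, and DESeq2 called Mlkl alone of the 7.

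WT lung was also set against WT fibroblasts of experiment 2. Ripk3 was much lower in lung, at 10.4 ± 0.915 CPM against 93.6 ± 11.8 CPM in fibroblasts (SD, n = 3 each), a ratio of 0.110 (0.0897 to 0.135) with an edgeR adjusted p of 2.7e-09. Mlkl was lower too (ratio 0.579, 0.442 to 0.760, edgeR adjusted p = 0.00176), as was Ripk1 (0.743, 0.623 to 0.886, edgeR adjusted p = 0.0055). Zbp1 was higher in lung, at 2.16 ± 0.412 CPM against 0.636 ± 0.0955 CPM in fibroblasts (ratio 3.36, 2.16 to 5.21, edgeR adjusted p = 1.8e-04). Casp8 (ratio 0.807) and Fadd (0.823) were lower and Cflar (1.32) higher, with edgeR adjusted p of 0.0277, 0.0278 and 0.0333. All 7 members passed, 2 higher and 5 lower in lung, but so did 75.6% of the 16364 genes tested (41.5% higher, 34.1% lower), and the median gene was higher in lung by 0.14 on the log2 scale. The calls of Casp8, Fadd and Cflar are the weak ones: leaving out 1 library left 4 to 6 of the 7 called, with Mlkl, Ripk1, Ripk3 and Zbp1 called each time. With the macrophage marker mean as a covariate 4 passed, and Ripk1, Casp8 and Cflar did not (edgeR adjusted p of 0.0624, 0.119 and 0.354).

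The tissues also differ in cells. Macrophage markers summed to 1820 to 2324 CPM in WT lung and 220 to 271 CPM in WT fibroblasts. Endothelial markers (8 genes) summed to 2184 to 2772 CPM in WT lung and 6.25 to 15.1 CPM in WT fibroblasts, where Cldn5 was at 0, and T and NK cell markers (9 genes) to 20.8 to 31.1 CPM in WT lung and 0.825 to 1.39 CPM in WT fibroblasts, where 8 of the 9 were at 0. The part of cell makeup in these tissue differences was not tested.

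Levels can be compared between genes only per length, and CPM per kilobase of annotated exon was used. In lung, Casp8 led with a median of 14.7 CPM per kilobase, followed by Cflar (6.95), Ripk1 (4.45), Ripk3 (4.42), Fadd (3.70), Mlkl (2.31) and Zbp1 (0.532), over 6 libraries. In fibroblasts, over 21 libraries, Ripk3 led with 48.9 CPM per kilobase, followed by Casp8 (18.03), Ripk1 (6.47), Mlkl (5.89), Cflar (5.63), Fadd (3.95) and Zbp1 (0.127). With the longest transcript as the length, Cflar moves up to 10.8 in fibroblasts, above Ripk1, and to 13.4 in lung. Ripk3 per length was 0.961 ± 0.0635 times Ripk1 in WT lung and 6.49 ± 1.03 times Ripk1 in WT fibroblasts of experiment 2. Mlkl per length was 0.453 ± 0.0762 of Ripk3 in WT lung and 0.0860 ± 0.00666 of Ripk3 in those fibroblasts (SD, n = 3 each). Within the fibroblasts that share was 0.149 ± 0.0167 in Het and 0.0860 ± 0.00666 in WT, so Mlkl was higher in Het relative to its kinase as well.

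**Figure D4:**
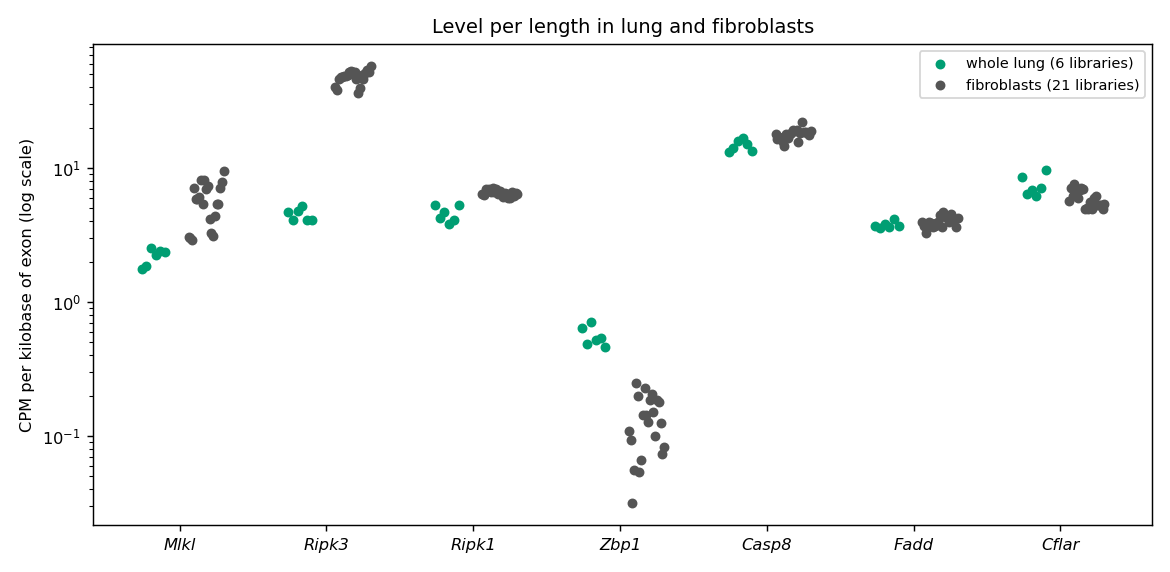
CPM per kilobase of annotated exon (log axis) of each gene in 6 whole lung libraries (left of each pair) and 21 fibroblast libraries (right), 1 point per library. Ripk3 has medians of 4.42 in lung and 48.9 in fibroblasts, and Zbp1 of 0.532 in lung and 0.127 in fibroblasts.

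Within the fibroblasts the members varied by very different amounts. The highest group mean was 2.75 times the lowest for Mlkl and 2.32 times for Zbp1, but 1.34 times for Ripk3, 1.26 for Casp8, 1.22 for Fadd and 1.11 for Ripk1. Over all 27 libraries Ripk1 lay between 31.6 and 59.1 CPM, Casp8 between 38.3 and 63.5, Fadd between 12.8 and 18.3 and Cflar between 62.7 and 123. Cflar group means were 80.0 to 88.2 CPM in experiment 1 and 63.1 to 70.6 CPM in experiment 2, a difference that was not tested. Ripk1 lies at chr13:34002363-34037147 on the plus strand, Zbp1 at chr2:173206612-173218923 on the minus strand and Fadd at chr7:144577318-144582463 on the minus strand. Casp8 (chr1:58795374-58847503) and Cflar (chr1:58711508-58758884) are on the plus strand of the same chromosome, 36490 bases apart. Of the exon bases of Ripk1, 9.01% overlap Serpinb6a on the other strand or the pseudogene Gm17084, and of those of Fadd, 6.12% overlap the antisense gene Faddos; the kit does not mark strand, so these 2 counts may hold reads of the other genes. Serpinb6a itself rose in Het against WT fibroblasts (log2 0.27, edgeR adjusted p = 0.024).

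Over the 21 fibroblast libraries, log2 CPM centred within each experiment gave Mlkl and Ripk3 a Pearson r of 0.85, the highest of the 21 pairs of members, and Zbp1 and Fadd 0.66. The other 19 pairs lay between -0.38 and 0.43. The libraries of a group share its label, so these are descriptions. Zbp1 had r = 0.77 with the mean of the interferon-stimulated genes and 0.55 with that of the macrophage markers, and Mlkl -0.02 and -0.60. Among 11053 expressed genes, those most like Mlkl were Pbxip1 (r = 0.935), Lhfpl2 (0.933), Naalad2 (0.933), Pcdhga8 (0.928) and Snai1 (0.919), a transcription factor of the mesenchymal state. Their log2 differences in Het against WT fibroblasts were 0.38, 0.50, 2.10, 0.55 and 0.62. These genes were picked for likeness to Mlkl over the same libraries, so the shared direction follows from the choice and is no further result. Those most like Zbp1 were Apobec1 (0.805), Camk4 (0.803), Mdk (0.797), Arl4d (0.790) and Stmn1 (0.785).

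The genes beside Mlkl did not pass the test that it passed. The 5 tested genes within 200 kb had log2 differences of -0.003 to 0.15 in Het against WT fibroblasts, against 1.22 for Mlkl, with edgeR adjusted p of 0.157 to 0.999. Ripk3 sits in a denser stretch of chromosome 14 with 23 tested neighbours. Of these Dhrs1 (log2 0.20, edgeR adjusted p = 0.0187) and Khnyn (0.24, edgeR adjusted p = 0.032) rose, and the 23 ranged from -0.29 to 0.27, all below the 0.43 of Ripk3. Of all genes tested 16.5% passed in this comparison, so nothing particular to these neighbours is read from their counts. Mlkl and Ripk3 had themselves passed, so their standing above the neighbours is a description and not a test.

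**Figure D5:**
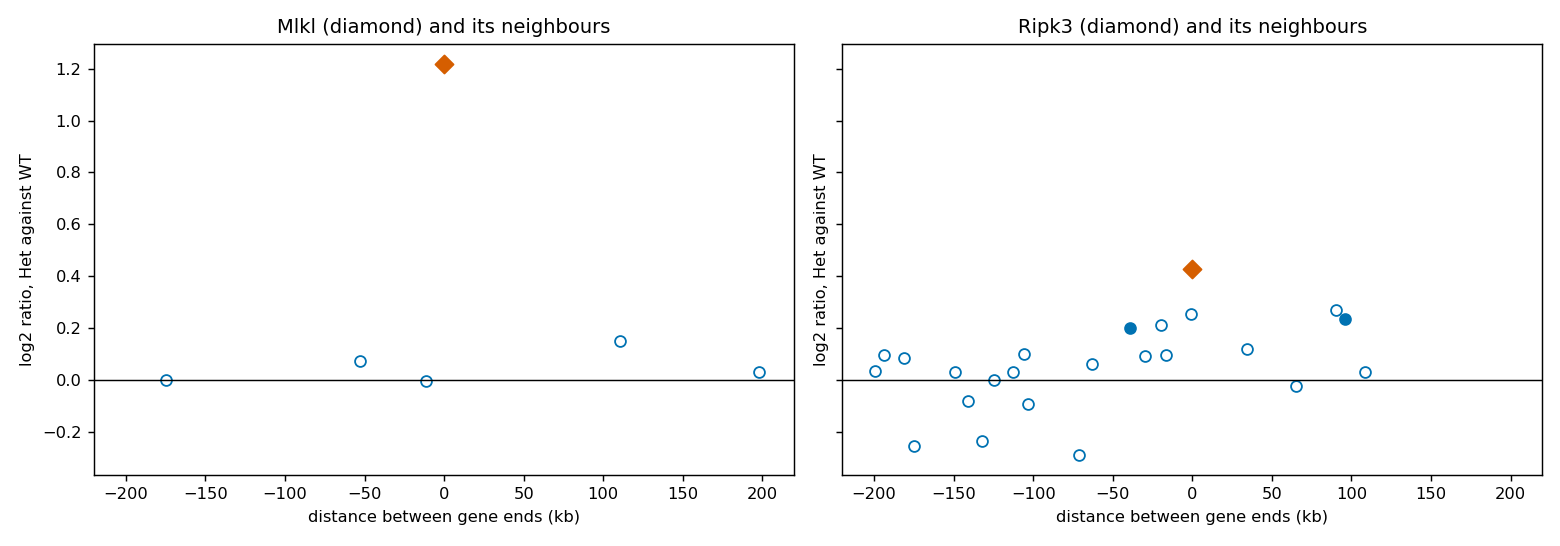
log2 ratio of Het against WT fibroblasts (vertical axis) of tested genes within 200 kb of Mlkl (left) and Ripk3 (right), by distance between gene ends in kb (horizontal axis, negative for genes at lower coordinates), filled where the edgeR adjusted p is under 0.05. Mlkl (diamond, 1.22) and Ripk3 (diamond, 0.43) lie above all their neighbours.

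The wider pathway was less uniform in Het against WT fibroblasts. Of 11 tested death ligands and receptors 2 fell: Fas, the death receptor (3.92 CPM in Het and 6.77 CPM in WT, log2 -0.78, edgeR adjusted p = 0.0276), and the interferon-gamma receptor chain Ifngr1 (log2 -0.27, edgeR adjusted p = 0.00283). Of 26 adaptors and members of the TNF receptor complex, 5 rose and 3 fell. Cyld, the deubiquitinase that favours Ripk1 kinase signalling, and the ubiquitin ligase adaptor Traf3 fell (log2 -0.29 and -0.23), while Spata2, which brings Cyld to the complex, and the kinase Ikbke rose (log2 0.24 and 0.35; edgeR adjusted p of the 4 from 0.00943 to 0.0263). Of 23 genes that handle Mlkl or repair membranes 1 passed and fell, the mitotic kinase Aurka (log2 -0.16). The medians of these 3 lists were -0.08, 0.01 and -0.01, beside 0.01 for all genes. Of all genes tested 16.5% passed in this comparison, 7.89% higher and 8.61% lower, so nothing particular to these lists is read from their counts.

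The lists of neighbouring death pathways had called genes in both directions, and their counts too stand beside 16.5% of all genes. Of 18 apoptosis genes 2 rose and 2 fell: the BH3-only gene Pmaip1 (21.8 CPM in Het and 10.4 CPM in WT, log2 1.07, edgeR adjusted p = 0.0494) and Casp6 (log2 0.36) rose, and the survival factor Mcl1 (-0.19) and Parp1 (-0.15) fell. Of 11 tested pyroptosis genes the cytokine Il18 rose (log2 1.24, edgeR adjusted p = 0.00263) and 3 fell: the DNA sensor Aim2 (-2.17), the inflammasome adaptor Pycard (-1.40) and Nlrp1b (-2.99), with a list median of -0.99. Those 3 were at 0.0418 to 1.58 CPM on average and fell in the libraries where macrophage markers were lower; the part of macrophages in them was not tested. Of 19 genes of nucleic acid sensing and interferon signalling, 1 rose, Tmem173, which encodes STING (log2 0.17), and 3 fell, the RNA sensor Ifih1 (-0.91), Mb21d1, which encodes cGAS (-0.37), and the kinase Jak1 (-0.12). Of 38 tested interferon-stimulated genes 7 fell, with a median log2 of -0.48. Cxcl10 (-2.03), Mx2 (-2.33), Ifi27l2a (-2.41) and Ifih1 had the lowest p-values. Cxcl10, Mx2 and Ifi27l2a were low, at 0.157 to 0.527 CPM on average in Het and 0.805 to 2.25 CPM in WT. The whole list summed to 309, 296 and 343 CPM in Het and to 419, 382 and 272 CPM in WT, which overlap. The part of macrophages in these genes was not tested. None of the 38 rose in edgeR (0 at an unadjusted p under 0.05, and 0 in DESeq2). Mlkl is known to be interferon-inducible in mouse cells, and the part of interferon in its level was not tested.

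In experiment 1, given without a test, 37 of 38 interferon-stimulated genes were above 0 in KO against WT, with a median log2 of 1.17, and all 19 macrophage markers were, with a median of 1.26. The whole list of 40 interferon-stimulated genes summed to 239, 497 and 490 CPM in KO 1, 2 and 3 and to 272, 248.7 and 297 CPM in WT 1, 2 and 3. In this sum, as in the macrophage sum, KO 2 and 3 lay above and KO 1 below every WT library. All 38 interferon-stimulated genes were below 0 in KO-NTD against KO. The whole list summed to 315, 254 and 376 CPM in KO-NTD 1, 2 and 3, within the range of the KO libraries. The share of all genes above or below 0 was not taken, so nothing particular to these genes is read from such counts. In Het-NTD against Het, WT-NTD against WT and Het against WT lung, no gene of any of these 7 lists passed in edgeR. At an unadjusted p under 0.05 there were 11, 13 and 0 list entries in the 3 comparisons, of 146, 146 and 152, and DESeq2 called 0, 2 and 0. In WT lung against WT fibroblasts, where 41.5% of all genes were higher and 34.1% lower, 5 of 12 tested death ligands and receptors were higher and 2 lower, with the ligand gene Tnfsf10 at 87.7 CPM in WT lung and 0.0811 CPM in WT fibroblasts. Of 14 pyroptosis genes 10 were higher and 3 lower, and of 40 interferon-stimulated genes 30 were higher and 2 lower (median log2 1.39). The genes that handle Mlkl were 5 higher and 8 lower of 23, among them the chaperones Hsp90ab1 (log2 -1.74) and Hsp90aa1 (-1.80), which fold Ripk3 and Mlkl.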

How the data were processed

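RNA of 27 samples was sequenced from about 200 ng per library with a TruSeq RNA v2 kit, per the labels' protocols. Raw counts by gene symbol were deposited for all libraries together, in 1 table. The tools named are Bowtie2 2.2.6, TopHat2 2.0.14, Subread and featureCounts 1.4.6, with the build mm10, per the submitters' processing notes. The annotation and strand setting for counting are not given in the sources used here. Among values of 1 to 30 counts, 61.5 to 67.3% were even, and the cause was not tested. The closest replicate pair of any group still differed by more than sampling noise (chi-square per degree of freedom at least 5.88).

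Each experiment, the lungs, and Het and WT of both tissues jointly were fitted with edgeR 4.0.16 in R 4.3.3 (filterByExpr by group, TMM scaling, robust quasi-likelihood F test, two-sided, Benjamini-Hochberg adjustment over 14551, 14314, 15933 and 16364 genes, threshold 0.05). Residual degrees of freedom were 6, 8, 4 and 8. All 7 genes passed the filter in each fit. Printed CPM are scaled over all 27 libraries. Likeness used log2 CPM with a prior count of 2 over genes averaging 1 or more on that scale.

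The members and gene lists were chosen with earlier results of these data known. All 7 members are named, with up to 4 called genes of each list by p-value and the 5 genes most like Mlkl and Zbp1. The 200 kb neighbours and the longest transcript as length were chosen after seeing the data. Alternatives were RLE scaling, DESeq2 1.42.0, no filter on low counts, a replicate block, a macrophage covariate, the compared groups alone, and each library left out. Scripts were tested on simulated data. The printed promoter sequences are from RefSeq, GRCm38.p6.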

Additional observations from a re-analysis of the deposited data

Results flagged for a closer look

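These results differed in the Het difference between lung and fibroblasts, by the interaction term of the joint fit. Of 16364 genes 1.12% passed for this term. Cd68, a macrophage marker, had a Het difference in lung that exceeded that in fibroblasts by 1.56 on the log2 scale (edgeR adjusted p = 0.0454). It was lower in Het fibroblasts, at 4.24 CPM against 10.6 CPM in WT of experiment 2 (log2 -1.31, edgeR adjusted p = 6.0e-04). No gene passed in Het against WT lung. Cdh5, an endothelial cadherin, had a difference of -2.73 (edgeR adjusted p = 0.0254). Its fibroblast levels were low, at 1.48 CPM in Het and 0.201 CPM in WT of experiment 2, against 541 CPM in WT lung. Kdr, another endothelial marker, went the other way from Cdh5 in Het against WT fibroblasts (log2 -1.55, edgeR adjusted p = 0.0163).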

How the results depend on the processing

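Mlkl rose in Het against WT fibroblasts of experiment 2 under all 12 alternatives, with log2 values of 1.05 to 1.35. Ripk3 lost its call with the macrophage covariate alone, so 1 member was called there. With that covariate 451 genes passed in KO against WT, 578 in Het against WT fibroblasts, 1 in Het-NTD against Het and 6 in the Het difference between tissues, and 4 members in WT lung against WT fibroblasts. DESeq2 called 479 genes in KO against WT, 23 in Het-NTD against Het, 21 in WT-NTD against WT, 4 in the NTD by genotype term, 1 in lung and 732 in the Het difference between tissues, with 1 member there. With the 2 compared groups alone 36 genes passed in KO against WT, 1389 in Het against WT, 20 in Het-NTD against Het and 1 in WT-NTD against WT, and with no filter 5 in WT-NTD against WT.

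The labels do not say whether replicate numbers pair the samples. Of correlations of same-numbered libraries, 5 of 9, 6 of 18, 1 of 3 and 2 of 18 were over 0.1 in experiment 1, experiment 2, lung and the joint fit. Those of experiment 1 ran from -0.48 to 0.61. Libraries with different numbers were not compared in this way, so pairing is not settled. With the replicate block 1 gene passed in Het-NTD against Het, 4 in WT-NTD against WT and 79 in the Het difference between tissues, and Fadd lost its call in WT lung against WT fibroblasts (edgeR adjusted p = 0.0513).

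With the macrophage covariate the log2 sign turned for Ripk1 (-0.063) and Cflar (0.10) in Het against WT fibroblasts, Cflar in Het-NTD against Het (0.0056) and in lung (-0.0097), and Zbp1 (-0.0053), Casp8 (-0.025) and Cflar (-0.055) in the Het difference between tissues, none of them called before or after. With RLE scaling Casp8 and Fadd lost their calls in WT lung against WT fibroblasts (edgeR adjusted p of 0.054 and 0.0588).

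Leaving out 1 library gave 24 genes (without KO 2) to 142 (without KO 1) in KO against WT, 1304 (without Het 3) to 2547 (without WT 1) in Het against WT fibroblasts, 1 to 3 in Het-NTD against Het, 2 to 119 (without WT 1) in WT-NTD against WT with 0 to 1 members, 0 to 2 in the NTD by genotype term, 39 (without WT lung 3) to 546 (without Het lung 3) in the Het difference between tissues, and 4 to 6 members in WT lung against WT fibroblasts. Signs of uncalled values turned within these ranges: in Het against WT fibroblasts Ripk1 -0.019 to 0.033 and Casp8 -0.035 to 0.11 (Cflar kept its sign, -0.14 to -0.01); in Het-NTD against Het Mlkl -0.20 to 0.010 and Fadd -0.061 to 0.078 (Cflar -0.09 to -0.03 kept its sign); in WT-NTD against WT Zbp1 -0.37 to 0.013 and Cflar -0.059 to 0.084; in lung Ripk3 -0.16 to 0.043, Casp8 -0.020 to 0.16, Fadd -0.013 to 0.10 and Cflar -0.12 to 0.21; in the Het difference between tissues Casp8 -0.060 to 0.12 and Cflar -0.054 to 0.28 (Zbp1 0.52 to 0.95 kept its sign). The causes were not tested. Low counts limit Zbp1 most, with 5 to 57 counts per fibroblast library.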
